A study of Mus musculus with 16 samples.

Results

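The inward rectifier and KATP channel subunit genes of the mouse heart ventricle were the 9 rows Kcnj2, Kcnj3, Kcnj5, Kcnj8, Kcnj11, Kcnj12, Kcnj14, Abcc8 and Abcc9, chosen by symbol from the 54108 rows that name a gene. Polyadenylated RNA was sequenced from ventricles of 8-week-old mice in 2 groups of 4 libraries, each with 3 males and 1 female (replicate 3). The cKO group carried Myh6-Cre and homozygous floxed Rbpms alleles (Rbpms fl/fl), and the control group carried Rbpms fl/fl without Cre, so both groups share the floxed allele and only the cKO group has the Cre transgene. The Myh6 promoter drives Cre in cardiomyocytes, so other ventricular cells of the cKO mice are not targeted. Libraries of newborn mice were not analysed here.

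Inward rectifiers pass potassium more readily into the cell than out of it, which lets them hold the resting potential of a cardiomyocyte without blocking the plateau of the action potential. The Kir2 genes (Kcnj2, Kcnj12, Kcnj14) encode subunits of the background current IK1. Kcnj3 and Kcnj5 encode the subunits that assemble into the acetylcholine-gated channel of the heart, which opens when muscarinic receptors release G-protein beta-gamma subunits. Kcnj11 and Kcnj8 encode the pore subunits, and Abcc9 and Abcc8 the sulfonylurea receptor subunits, of the KATP channel, which is closed by ATP and links membrane potential to the metabolic state.

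Of the 9 genes, 7 fell and 1 rose in the cKO group (edgeR quasi-likelihood test, called at an adjusted p under 0.05, Benjamini-Hochberg over 16051 tested genes), and Kcnj12 did not pass. Over all tested genes, 9.64% fell and 9.64% rose. The largest fall was in Kcnj3, followed by the sulfonylurea receptor gene Abcc9, while Kcnj14 was 11.2-fold higher. The other 5 falls were each smaller than 1.5-fold. The median log2 fold change was -0.40 over the 9 genes and 0.01 over all tested genes. The 4 cKO and 4 control values did not overlap for 6 genes that were lower and 1 that was higher, against 11.8% of all tested genes in each direction.

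All 9 genes passed the filter on low counts. Library totals were 20190334 to 24540433 counts, and 1 read was worth 0.0396 to 0.0523 CPM (counts per 1000000 reads, scaled by TMM, a factor that adjusts for library composition). The targeted gene, Rbpms, which encodes an RNA-binding protein, had 26.9 to 38.8 CPM in the cKO libraries and 102 to 193 CPM in the controls (log2 fold change -2.33, SE 0.20, adjusted p = 3.54e-05). The genotypes lay apart on principal component 1, with 39.1% of the variance. Mitochondrial transcripts took 11.8% of control replicate 4 and 8.04% to 10.1% of each other library. With total counts as the only scaling, 1992 genes were called higher and 1021 lower, against 1548 and 1547 with TMM. The labels do not say whether each library is 1 animal, so every p-value refers to library-to-library spread, which may be technical.

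Marker lists were set beside the tissue label and used to describe the cell makeup. The ventricular light chain Myl2 had 2592 to 2834 CPM in cKO and 2645 to 3306 CPM in control libraries, and the atrial light chain Myl7 had 20.8 to 63.6 CPM and 17.1 to 92.6 CPM. Of 8 cardiomyocyte markers, 2 fell (Ryr2 with a log2 fold change of -0.68, Tnni3 with -0.47). The log2 fold change was negative for all 8, with Myl2 the nearest to no change (-0.15) and a median of -0.26. Their summed level was 35944 to 44016 CPM in cKO and 43179.5 to 56449.6 CPM in control libraries. All 6 fibroblast markers rose, with a summed level of 1889 to 2196 CPM in cKO and 909 to 1134 CPM in control libraries. Of 6 macrophage markers 2 rose (212 to 252 CPM summed in cKO, 135 to 201 CPM in control), as did 2 of 5 Schwann cell markers (26.6 to 32.6 CPM, against 16.9 to 22.6 CPM). None of 7 endothelial markers passed (887 to 1075 CPM, against 957 to 1243 CPM). Skeletal muscle markers, of which none of the 4 tested passed, summed to 7.61 to 21.0 CPM in cKO libraries, 127 CPM in control replicate 4 and 3.75 to 6.22 CPM in the other controls. Without control replicate 4 the channel genes kept their calls, with log2 fold changes of 3.91 for Kcnj14, -1.70 for Kcnj3, -1.06 for Abcc9, -0.64 for Kcnj2, -0.43 for Kcnj5, -0.39 for Kcnj8, -0.36 for Abcc8 and -0.33 for Kcnj11. None of the 3 tested adipocyte markers passed (2.33 to 17.2 CPM summed, against 1.36 to 6.86 CPM). The part of cell makeup in the results was not tested. In bulk tissue, fewer cells of a type and less RNA per cell cannot be told apart.

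The 7 Kir genes share a pore loop whose filter selects potassium. Stretches of 48 bases around it are shown for 6 of them because the pore loop is a conserved part of these paralogs. They show how far these genes differ within this stretch, not over whole transcripts. They are coding strand sequence of the GRCm38 reference, and the capitals mark the 3 codons of the selectivity filter.
Kcnj2 (chr11:111072189-111072236): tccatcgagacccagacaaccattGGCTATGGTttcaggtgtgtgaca
Kcnj14 (chr7:45819618-45819665): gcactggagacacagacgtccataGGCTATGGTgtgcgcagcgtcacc
Kcnj3 (chr2:55437609-55437656): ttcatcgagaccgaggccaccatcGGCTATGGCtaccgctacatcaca
Kcnj5 (chr9:32322544-32322591): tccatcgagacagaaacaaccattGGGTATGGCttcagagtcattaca
Kcnj11 (chr7:46099481-46099528): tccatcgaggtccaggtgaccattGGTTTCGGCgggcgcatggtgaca
Kcnj8 (chr6:142566433-142566480): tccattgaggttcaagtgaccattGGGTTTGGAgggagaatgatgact
The middle codon of the filter is TTC in Kcnj11 and TTT in Kcnj8, and TAT in the other 4 genes shown. The longest run of identical bases, on either strand, between annotated transcripts of any pair of the 9 genes was 31 bases, between Kcnj5 and Abcc9. It was 26 bases between Kcnj12 and Kcnj14, 23 bases between Abcc8 and Abcc9 and 21 bases between Kcnj8 and Kcnj11.

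**Figure D1:**
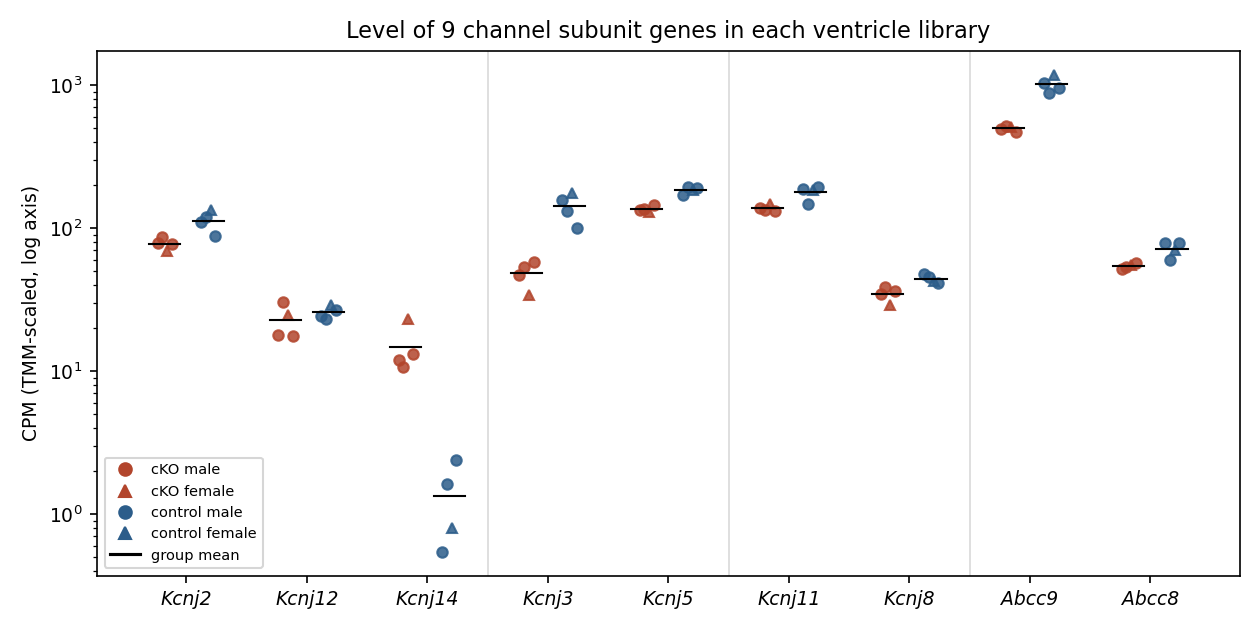
Level of each gene in each library, in CPM on a log axis. Points are single libraries (circles male, triangles female), bars are group means, and grey lines separate the Kir2, Kir3, Kir6 and sulfonylurea receptor genes. The Kcnj14 values are 10.6 to 23.2 CPM in cKO libraries and 0.544 to 2.40 CPM in controls, and the Abcc9 values 474 to 518 CPM and 889 to 1186 CPM.

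Among the Kir2 genes, Kcnj2 fell, Kcnj14 rose and Kcnj12 did not pass. Kcnj2, the main IK1 subunit gene of the ventricle, had 78.9, 86.5, 69.4 and 77.4 CPM in cKO replicates 1 to 4 and 110.3, 120.0, 134 and 87.7 CPM in control replicates 1 to 4. Every cKO library was below every control library, but the highest cKO value and control replicate 4 lay close together. The level was 78.0 ± 7.01 CPM in cKO and 113 ± 19.5 CPM in control libraries (SD, n = 4 each), a log2 fold change of -0.54 (SE 0.12, 95% interval -0.80 to -0.27, adjusted p = 0.00895).

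Kcnj14, which encodes a Kir2 subunit best known from neurons, had 12.0, 10.6, 23.2 and 13.1 CPM in cKO libraries 1 to 4 and 0.544, 1.62, 0.80 and 2.40 CPM in control libraries 1 to 4. These values came from 291, 242, 587 and 305 counts in cKO and 12, 33, 19 and 46 counts in control libraries. All cKO libraries were far above all controls, and the female cKO library stood above the male ones. The log2 fold change was 3.48 (SE 0.39, 95% interval 2.63 to 4.34, adjusted p = 0.000159), and 0.0748% of tested genes had a larger absolute log2 fold change.

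Kcnj12, another IK1 subunit gene, had 17.9, 30.3, 24.5 and 17.6 CPM in cKO and 24.1, 23.3, 29.1 and 26.9 CPM in control libraries. The groups overlapped, with cKO replicate 2 the highest of all 8 libraries. The log2 fold change was -0.20 (SE 0.16, 95% interval -0.55 to 0.16, adjusted p = 0.458), an interval that includes falls as large as that of Kcnj11.

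To set the Kir2 genes beside each other, counts were divided by the length of their annotated exons (RPKM, CPM per kilobase). The summed Kir2 level was 28.0 ± 2.94 RPKM in cKO and 30.7 ± 3.69 RPKM in control libraries (SD, n = 4 each), and the groups overlapped. The makeup of that sum differed. Kcnj14 was 12.7% to 28.3% of the Kir2 level in cKO libraries and 0.685% to 3.3% in controls, while Kcnj2 was 42.2% to 57.0% in cKO and 60.2% to 70.9% in controls. The share of Kcnj12 was 29.0% ± 4.91 in cKO and 30.9% ± 3.98 in controls (SD, n = 4 each), with overlap. The log2 ratio of Kcnj14 to Kcnj2 counts within a library was -2.47 ± 0.62 in cKO and -6.58 ± 1.12 in control libraries (SD, n = 4 each; exact two-sided permutation test p = 0.0286, the smallest that 4 against 4 libraries allow, 0.04 after Benjamini-Hochberg adjustment over 7 ratios). Every cKO library was above every control for Kcnj14 and below every control for Kcnj2, so this ratio had to separate the groups. Its p-value adds nothing to the calls of the single genes. The log2 ratio of Kcnj12 to Kcnj2 was -1.82 ± 0.36 in cKO and -2.12 ± 0.29 in controls and did not pass (exact permutation p = 0.171, adjusted 0.2, n = 4 each).

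**Figure D2:**
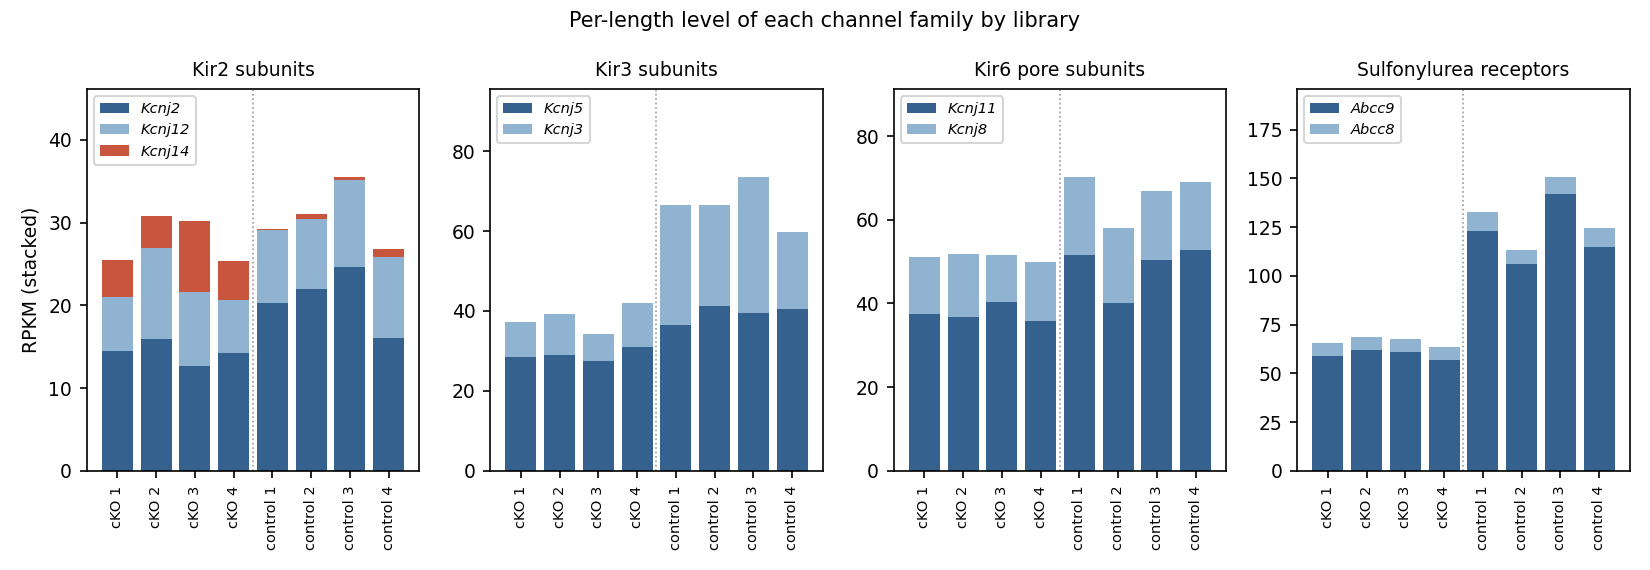
Stacked per-length level (RPKM) of each channel family in each library, cKO libraries left of the dotted line and controls right of it. Summed Kir2 levels overlap between groups with Kcnj14 (red) filling 12.7% to 28.3% of the cKO bars, while the Kir3, Kir6 and sulfonylurea receptor sums are lower in every cKO library.

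Both genes of the acetylcholine-gated channel fell, Kcnj3 by more than Kcnj5. Kcnj3, whose subunit needs a partner to form a working channel at the membrane, had 46.7, 53.9, 34.2 and 57.9 CPM in cKO and 157, 132, 177 and 101 CPM in control libraries. The groups did not overlap, and the female libraries held both the lowest cKO and the highest control value. The level was 48.2 ± 10.4 CPM in cKO and 142 ± 33.0 CPM in control libraries (SD, n = 4 each), a log2 fold change of -1.56 (SE 0.19, 95% interval -1.97 to -1.15, adjusted p = 0.000234).

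Kcnj5, the partner subunit, had 133, 136, 129 and 145 CPM in cKO and 171, 193, 185 and 189.6 CPM in control libraries. Both groups were tight and separate, with a log2 fold change of -0.44 (SE 0.07, 95% interval -0.60 to -0.29, adjusted p = 0.00135). The log2 ratio of Kcnj3 to Kcnj5 counts was -1.52 ± 0.28 in cKO and -0.41 ± 0.40 in control libraries (SD, n = 4 each; exact two-sided permutation p = 0.0286, adjusted 0.04). Per length, Kcnj3 was 24.0% ± 3.37 of the summed Kir3 level in cKO and 40.5% ± 6.54 in control libraries (SD, n = 4 each). That sum was 38.2 ± 3.3 RPKM in cKO and 66.6 ± 5.60 RPKM in controls, without overlap.

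Atrial tissue is rich in this channel. Of 6 tested atrial markers, Dkk3 rose (log2 fold change 1.42) and none fell, and the summed atrial level was 182 to 381 CPM in cKO and 117 to 324 CPM in control libraries. Bmp10, an atrial growth factor gene, was below the filter. It had 0.0791 to 0.258 CPM in cKO libraries, 3.26 CPM in control replicate 1 and 0 to 0.0842 CPM in the other controls. Control replicate 1 was also the highest control for Myl4 (96.0 CPM), Myl7 (92.6 CPM) and Sln (12.3 CPM). Among cKO libraries, replicate 4 was the highest for these genes (168, 63.6 and 15.1 CPM). Of 7 tested markers of the conduction system, where the channel is also found, Hcn4 fell (5.26 to 8.98 CPM in cKO, 17.6 to 33.9 CPM in control, log2 fold change -1.93), Cntn2 rose (0.47) and the summed level overlapped, at 132 to 156 CPM and 123 to 167 CPM. Isl1 was at 0 counts in all control libraries and at most 0.176 CPM in cKO libraries. The part of these cells in the Kir3 values was not tested.

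Kcnj3 (chr2:55435970-55598145, plus strand) shares 1621 exonic bases with the lincRNA Gm26794 on the other strand, and whether the counting used strand is not given in the sources used here. Gm26794 had 0.237 to 0.473 CPM in cKO and 0.686 to 0.993 CPM in control libraries (adjusted p = 0.0162), so it was also lower, at under 1 CPM in each library.

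The receptor and G-protein genes that act on this channel moved in part. Of 15 tested, 5 fell and 1 rose, against 9.64% of all tested genes in each direction. Their median log2 fold change was -0.10. Gnao1, a G-protein alpha subunit, rose to 119 to 136 CPM in cKO libraries, against 37.3 to 58.4 CPM in controls (log2 fold change 1.27, adjusted p = 8.41e-05). Gnb5 and Rgs6, whose products form a complex that speeds channel closure, fell by 0.80 (adjusted p = 0.000264) and by 0.75 (adjusted p = 0.0013) on the log2 scale. Rgs7bp, a membrane anchor of such complexes, fell by 0.78 (adjusted p = 0.00749), and Rgs2, another regulator of G-protein signalling, fell by 0.54 (adjusted p = 0.00339). Chrm2, the muscarinic receptor of the heart, had 237 to 274 CPM in cKO and 299.7 to 365 CPM in control libraries (log2 fold change -0.38, adjusted p = 0.0096). The adenosine receptor gene Adora1 did not pass, nor did the common beta subunit genes Gnb1 and Gnb2.

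**Figure D3:**
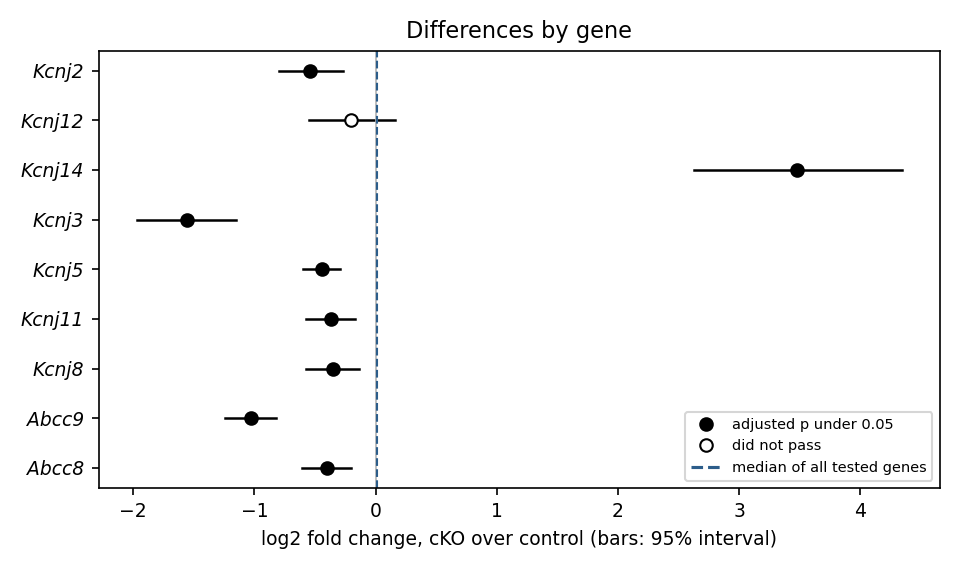
Log2 fold change, cKO over control, of each gene with its 95% interval, and the median of all tested genes (dashed line, 0.01). Filled points passed an adjusted p under 0.05, and the interval of Kcnj12 (open) crosses 0.

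Of the KATP genes, the sulfonylurea receptor gene Abcc9 fell by the most and the other 3 by less. Abcc9, which encodes SUR2, the receptor of ventricular and vascular KATP channels, had 495, 518, 508 and 474 CPM in cKO and 1029.6, 889, 1186 and 961 CPM in control libraries. The cKO values lay within a narrow range well below the lowest control. The level was 499 ± 19.2 CPM in cKO and 1016 ± 127 CPM in control libraries (SD, n = 4 each), a log2 fold change of -1.03 (SE 0.10, 95% interval -1.24 to -0.82, adjusted p = 5.71e-05), 50.9% lower. Counts per gene do not separate the splice forms of SUR2.

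Abcc8, which encodes SUR1, the receptor of pancreatic and atrial KATP channels, had 52.0, 53.3, 55.1 and 56.9 CPM in cKO and 78.8, 59.7, 69.9 and 79.0 CPM in control libraries. All cKO libraries were below all controls, control replicate 2 by the least. The log2 fold change was -0.40 (SE 0.09, 95% interval -0.61 to -0.20, adjusted p = 0.0106).

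Kcnj11, the pore subunit gene of ventricular KATP channels, had 138, 135, 148 and 132 CPM in cKO and 189, 148, 185 and 194 CPM in control libraries. Control replicate 2 and cKO replicate 3 overlapped. The log2 fold change was -0.37 (SE 0.09, 95% interval -0.57 to -0.17, adjusted p = 0.0154).

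Kcnj8, the pore subunit gene of vascular KATP channels, had 34.8, 38.8, 28.8 and 36.2 CPM in cKO and 47.5, 45.4, 42.6 and 41.5 CPM in control libraries. The groups were separate, with a small gap between the highest cKO and the lowest control value. The log2 fold change was -0.35 (SE 0.10, 95% interval -0.57 to -0.14, adjusted p = 0.025). This call was lost under 6 of 18 alternatives (adjusted p 0.0565 to 0.0995), among them each fit without cKO replicate 1 or 3 or control replicate 1 or 2.

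Kcnj8 and Abcc9 are typical of pericytes and vascular muscle. Of 9 pericyte markers, Cspg4 rose (log2 fold change 0.56) and Vtn fell (-0.49), and Rgs5 and Pdgfrb had log2 fold changes of 0.01 and -0.00. The summed pericyte level was 1299 to 1554 CPM in cKO and 1353 to 1459 CPM in control libraries. Most of that sum was Rgs5, at 968 to 1115 CPM in cKO and 887 to 1143 CPM in control libraries. Of 6 smooth muscle markers, Lmod1 rose (0.54) and Smtn fell (-0.79), with a summed level of 221 to 394 CPM in cKO and 369 to 467 CPM in control libraries. The part of these cells in the KATP values was not tested.

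Within a library, Abcc9 fell relative to the pore subunit genes Kcnj11 and Kcnj8 and to the other receptor gene, Abcc8. The log2 ratio of Kcnj11 to Abcc9 counts was -1.85 ± 0.07 in cKO and -2.51 ± 0.16 in control libraries, that of Kcnj8 to Abcc9 was -3.85 ± 0.20 and -4.51 ± 0.21, and that of Abcc8 to Abcc9 was -3.20 ± 0.10 and -3.82 ± 0.21 (SD, n = 4 each). The groups were separate in all 3 ratios (exact two-sided permutation p = 0.0286, adjusted 0.04, for each). All 3 ratios share Abcc9, so they are not separate results. The log2 ratio of Kcnj8 to Kcnj11 was -2.0 ± 0.25 in cKO and -2.01 ± 0.22 in control libraries (exact permutation p = 0.971, n = 4 each), and the groups overlapped. Summed over the pore subunits, the per-length level was 51.2 ± 0.832 RPKM in cKO and 66.0 ± 5.52 RPKM in controls (SD, n = 4 each), a ratio of 0.776. Summed over both receptors it was 66.3 ± 2.16 RPKM and 130.3 ± 15.5 RPKM, a ratio of 0.509. Abcc8 was 10.1% ± 0.633 of the receptor sum in cKO and 6.86% ± 0.923 in control libraries. The per-length levels of Kcnj11 and Abcc8 depend on which annotated transcripts set the length, and so do these sums and shares.

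**Figure D4:**
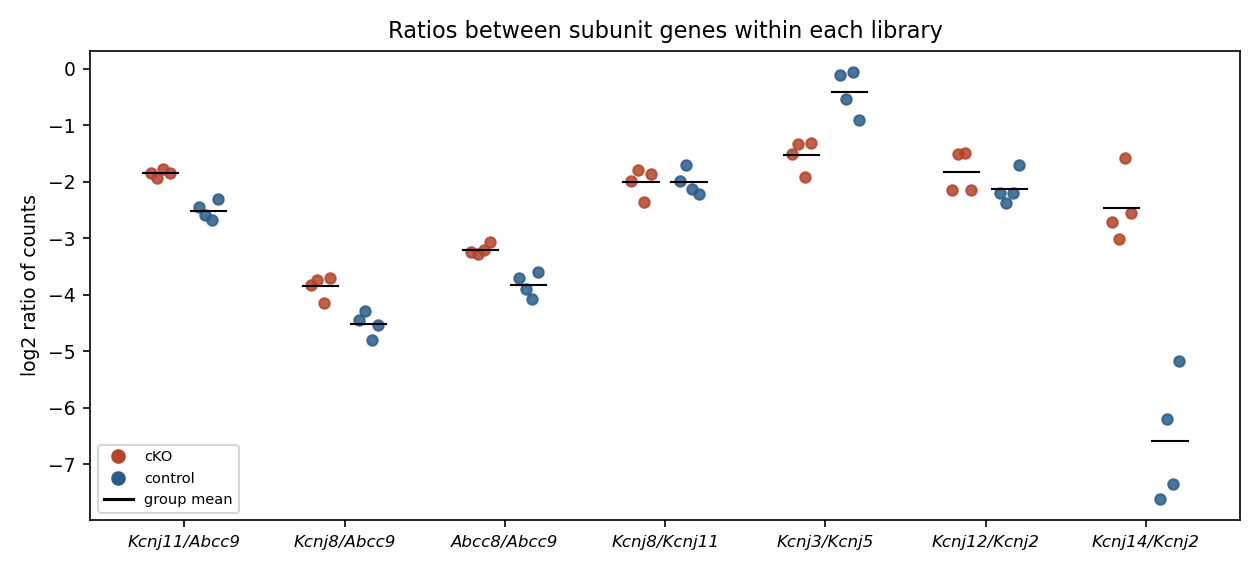
Log2 ratio of counts of subunit genes within each library, with group means as bars. The cKO and control points are separate for Kcnj11/Abcc9, Kcnj8/Abcc9, Abcc8/Abcc9, Kcnj3/Kcnj5 and Kcnj14/Kcnj2, and overlap for Kcnj8/Kcnj11 and Kcnj12/Kcnj2.

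The KATP genes lie in pairs, each a pore subunit gene beside a receptor gene. Kcnj8 (chr6:142564837-142571614) and Abcc9 (chr6:142587862-142702315) are on the minus strand, 16.2 kb apart with no annotated gene between them. Kcnj11 (chr7:46093953-46100764) and Abcc8 (chr7:46104523-46180033) are on the minus strand, 3.8 kb apart with no gene between them. Kcnj14 (chr7:45816460-45824782, minus strand) lies 269.2 kb from Kcnj11 with 15 genes between them. Of the remaining Kir genes, Kcnj2 is at chr11:111066164-111076821 (plus strand), Kcnj12 at chr11:61022564-61071131 (plus strand) and Kcnj5 at chr9:32314707-32344350 (minus strand). The members of the chromosome 7 pair had log2 fold changes of -0.37 (Kcnj11) and -0.40 (Abcc8), and those of the chromosome 6 pair of -0.35 (Kcnj8) and -1.03 (Abcc9). On chromosome 6, 158 exonic bases of Abcc9 are also covered by the antisense gene 5330439B14Rik, which had 2 to 6 counts in cKO and 5 to 9 counts in control libraries and was below the filter. Within the span of Abcc8 lie Gm45487 (same strand) and Gm45486 (other strand), with 0 shared exonic bases, and neither passed.

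The promoters of the chromosome 6 neighbours are shown since their changes were of different size. Each runs from 250 bases before to 50 bases after the start in the RefSeq table of GRCm38.p6, on the strand of the gene, and 6 of the 9 genes had an entry. Capitals mark matches to GGGCGG or to the MEF2 consensus. The motif TATAAA, the motif AGATAA and the CArG box were searched too, each on both strands.
Abcc9 (chr6:142702225-142702524, minus strand): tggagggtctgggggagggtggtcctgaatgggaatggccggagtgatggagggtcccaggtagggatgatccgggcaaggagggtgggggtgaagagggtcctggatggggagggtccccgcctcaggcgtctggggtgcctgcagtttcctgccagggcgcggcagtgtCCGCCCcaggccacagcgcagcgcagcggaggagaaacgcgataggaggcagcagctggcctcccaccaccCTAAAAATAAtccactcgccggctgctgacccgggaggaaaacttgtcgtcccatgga
Kcnj8 (chr6:142571565-142571864, minus strand): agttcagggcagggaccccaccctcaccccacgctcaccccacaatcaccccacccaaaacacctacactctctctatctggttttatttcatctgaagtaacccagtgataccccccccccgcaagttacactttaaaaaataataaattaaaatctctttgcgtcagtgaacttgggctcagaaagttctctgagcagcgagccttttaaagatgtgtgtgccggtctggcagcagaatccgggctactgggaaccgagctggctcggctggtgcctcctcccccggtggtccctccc
The Abcc9 promoter held the MEF2 consensus, which began 8 bases before the start and ran across it. This pattern is its own reverse complement, so any match to it reads on both strands. The Abcc9 promoter also held GGGCGG on the other strand, 79 bases before the start. The Kcnj8 promoter held none of the 5 motifs. Kcnj2 and Kcnj5 had 2 matches each and Kcnj3 had 1 match to GGGCGG, and Kcnj12 had none of the 5. Of 32851 promoters of this length, 35.7% held GGGCGG, 13.6% TATAAA, 11.2% AGATAA, 3.19% the MEF2 consensus and 1.63% the CArG box. A match is a description of the letters only.

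Per length, the order of the 9 genes differed between the groups in the place of Kcnj3. In cKO libraries the mean levels were 59.6 RPKM for Abcc9, 37.6 RPKM for Kcnj11, 29.0 RPKM for Kcnj5, 14.3 RPKM for Kcnj2, 13.6 RPKM for Kcnj8, 9.24 RPKM for Kcnj3, 8.20 RPKM for Kcnj12, 6.71 RPKM for Abcc8 and 5.43 RPKM for Kcnj14. Neighbours whose libraries overlapped were Kcnj2 with Kcnj8, Kcnj3 with Kcnj12, Kcnj12 with Abcc8 and Abcc8 with Kcnj14. In control libraries the mean levels were 121 RPKM for Abcc9, 48.7 RPKM for Kcnj11, 39.4 RPKM for Kcnj5, 27.2 RPKM for Kcnj3, 20.8 RPKM for Kcnj2, 17.4 RPKM for Kcnj8, 9.39 RPKM for Kcnj12, 8.88 RPKM for Abcc8 and 0.494 RPKM for Kcnj14. There, Kcnj11 with Kcnj5, Kcnj3 with Kcnj2, Kcnj2 with Kcnj8, and Kcnj12 with Abcc8 overlapped. With exons of the basic transcript set only, a length chosen after seeing the data, Abcc8 had 11.1 RPKM in cKO and 14.7 RPKM in control libraries. It then stood above Kcnj12 in both groups, and above Kcnj3 in the cKO group. Kcnj11 had 44.0 RPKM in cKO and 56.9 RPKM in control libraries with these lengths.

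The sexes could be set side by side only as values, with 1 female library in each group. The log2 ratio of cKO to control was 4.86 between the female libraries and 2.97 between the male means for Kcnj14, -2.37 and -1.30 for Kcnj3, and -0.95 and -0.39 for Kcnj2. It had the same sign in both sexes for all 9 genes, and the difference between sexes was not tested. In males alone (3 against 3), the log2 fold change of Kcnj14 was 2.99.

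Over all tested genes, 19.3% passed in either direction, and the lists of other potassium channel and transporter genes are small. Among 8 other Kir genes, 6 were below the filter, Kcnj10 rose at a low level (0.594 to 1.41 CPM in cKO, 0.272 to 0.547 CPM in control, log2 fold change 1.24, adjusted p = 0.0354) and Kcnj15 did not pass (log2 fold change 0.81, adjusted p = 0.0674). The call of Kcnj10 was lost in each of 6 fits that left out 1 library, namely cKO replicate 1, 2 or 4 or control replicate 1, 2 or 4. The median of both was 1.02. Of 5 tested ABCC transporters outside the sulfonylurea receptors, Abcc1 rose (131 to 142 CPM in cKO, 78.9 to 110.3 CPM in control, log2 fold change 0.48, adjusted p = 0.00529), Abcc4 fell (-0.31, adjusted p = 0.0478), and the median was 0.17. Abcc4 did not pass when any library other than cKO replicate 4 was left out (adjusted p 0.0684 to 0.138).

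Of 5 tested genes of the tandem-pore potassium channels, which carry background currents, Kcnk3 fell (197 to 232 CPM in cKO, 273 to 369 CPM in control, log2 fold change -0.55, adjusted p = 0.00588), Kcnk2 rose (0.64, adjusted p = 0.0332) and the median was 0.28. The call of Kcnk2 was lost without cKO replicate 2, 3 or 4 or control replicate 1, 2 or 3. Kcnk12, Kcnk15 and Kcnk16 had no count in any library.

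Genes that anchor Kir2 and KATP channels or carry them to the membrane gave 4 rises and 2 falls among 23 tested, with a median log2 fold change of 0.04. The scaffold genes Dlg2 (0.94, adjusted p = 0.00404) and Dlg4 (0.75, adjusted p = 0.00231) and the dystrophin-complex genes Dtna (0.38) and Sntb2 (0.29) rose. Ank2, which encodes ankyrin-B, fell by 0.33 (adjusted p = 0.0149) and Akap7, an anchor of protein kinase A, fell by 0.44 (adjusted p = 0.00317). Without control replicate 3, 4 genes of this list were called lower. Of 9 genes for enzymes that bind KATP channels or feed them with nucleotides, 4 fell and none rose, with a median of -0.26. Ckm, the muscle creatine kinase, had 476 to 564 CPM in cKO and 812 to 1132 CPM in control libraries (log2 fold change -0.81, adjusted p = 0.00045). Ldhb fell by 0.54 (adjusted p = 0.00209), Tpi1 by 0.48 (adjusted p = 0.00258) and Aldoa by 0.34 (adjusted p = 0.0305). Aldoa did not pass when any library other than control replicate 2 was left out (adjusted p 0.0619 to 0.0925).

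The genes most like Kcnj14 in log2 CPM over the 8 libraries, among 14033 genes of at least 1 CPM on average, were Rnf115 (Pearson r = 0.997), Hacd4 (0.996) and Nt5e (0.993). Those most like Abcc9 were Twnk (0.995), Cobll1 (0.995) and Dcaf12l1 (0.992). All 6 changed in the same direction as the gene they were matched to, so these correlations describe the group difference and the libraries they share.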

How the data were processed

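Gene expression was measured in 8 ventricle libraries, grouped by the labels. The authors deposited whole-number counts per gene symbol, from a stranded mRNA kit, per the labels' protocols. The tools named, without roles, are HISAT2 2.0.4, featureCounts 1.6.0, FastQC 0.11.4 and edgeR 3.30.3, with GRCm38 and mm10 as builds, per the submitters' processing notes. The annotation, the strand setting and the treatment of multi-mapping reads were not given in the sources used here, so genes that overlap others are uncertain.

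Of 54132 rows, 24 that name no gene (0.115% to 0.132% of counts) were left out. Counts were scaled by TMM, filtered with filterByExpr and tested with edgeR 4.0.16 (R 4.3.3) with Benjamini-Hochberg adjustment over 16051 genes. RPKM values used exon lengths of the reference annotation. Ratios of counts (with 0.5 added) were compared by exact permutation over all 70 splits. The test script was tested on simulated data, and its pass mark was restricted to genes of at least 1 CPM after a first run on all genes had missed it. DESeq2 1.42.0 and limma 3.58.1 served as alternatives. Replicate libraries differed by more than sampling noise (chi-square per degree of freedom 7.09 to 31.2). The members, gene lists and markers were chosen with earlier results of these data known. Named were the members, Rbpms, genes that overlap a member, from each pathway list up to 4 genes with the smallest adjusted p, for Kcnj14 and Abcc9 the 3 genes with the highest Pearson r, and defining cell type markers. Which markers to name singly (Rgs5, Pdgfrb, Bmp10 and Isl1 among them) was chosen after their values were seen, as were Chrm2, Rgs7bp, Adora1, Gnb1, Gnb2, Ank2, Sntb2 and the unexpressed tandem-pore genes. The pore loop sequence of 1 Kir gene is not reported here.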

Additional observations from a re-analysis of the deposited data

How the results depend on the processing

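The direction of each of the 9 channel genes held in 18 alternatives (scaling, filter, tool, dispersion, sex and left-out libraries), and the call held for 8 of them. Kcnj8 missed the threshold with total counts only (0.0995), in males only (0.0565) and without cKO replicate 1 (0.0633) or 3 (0.0628) or control replicate 1 (0.0631) or 2 (0.057). The number of channel genes called lower was 7, 6 in those 6 fits, and 4 at an adjusted p under 0.01. Kcnj14 had log2 fold changes of 2.99 to 3.91. The 6 ratios other than Kcnj8/Kcnj11 kept their direction in every alternative run, and Kcnj8/Kcnj11, which did not pass, lay between -0.07 and 0.13. Leaving out 1 library, or the females, gave ratios with no test. Over all genes, total counts only gave 1021 lower calls, and an adjusted p under 0.01 gave 817 lower and 808 higher. Leaving out 1 library gave 1093 to 1418 lower and 1129 to 1458 higher.

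Small lists were less stable. Higher calls among other Kir genes were 0 with the stricter filter and limma-voom, 2 with DESeq2, with sex as a covariate and in males only, and 0 to 2 with 1 library left out. Lower calls among other ABCC genes were 0 with upper-quartile factors, with total counts only and in males only, and 0 to 1 with 1 library left out. Higher calls among tandem-pore genes were 2 with DESeq2 and limma-voom, 0 in males only, and 0 to 1 with 1 library left out. Lower calls among anchoring genes were 1 with total counts only and 2 to 4 with 1 library left out. Abcc3, which did not pass, had a log2 fold change of 0.17, -0.06 without cKO replicate 4, -0.00 without control replicate 3 and up to 0.41 without other libraries. The cause of these changes was not tested. No paired analysis was possible because the labels name no pairing of libraries. The labels also carry no replicate numbers, so replicates are numbered here in the order of the sample titles within each group. At this depth a gene under about 1 CPM rests on few reads, as the 12 Kcnj14 counts (0.544 CPM) of control replicate 1 show.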

Other observations

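Of the 7 genes that fell, cKO replicate 3, the female, was the lowest cKO library for 4 (Kcnj2, Kcnj3, Kcnj5 and Kcnj8), and it was the highest for Kcnj11, which also fell, and for Kcnj14. Control replicate 4 was the lowest control for 3 of the 7 (Kcnj2, Kcnj3 and Kcnj8) and the highest for Kcnj11 and Abcc8, which also fell, and for Kcnj14. It was the lowest control for Rbpms, at 102 CPM. Control replicate 2 was the lowest control for the same number of genes that fell, 3 of 7 (Kcnj11, Abcc8 and Abcc9).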
